A study of Mus musculus with 7 samples.

Results

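Cdh5, Pecam1, Flt1, Kdr, Tek and Fabp4 are 6 mRNAs by which endothelial cells, the lining of blood vessels, are commonly recognised. They were examined with every microRNA feature whose name begins with Mir126. The 6 mRNAs were taken by gene name, and the microRNA rule found 3 features, Mir126a, Mir126b and Mir1264, so that 9 of 49584 listed features were followed. Mir1264 shares only the letters of its name with the other two and is a different microRNA on chromosome X. The 6 mRNAs belong to 21960 nuclear protein-coding genes and the Mir126 features to 2202 microRNA features in the files.

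The libraries were small RNA libraries from crude heart mitochondria of mice, 3 control libraries (L/L, genotype Tefm +/+) and 4 knockout libraries (L/L, cre, genotype Tefm -/-). Both groups carry Tefm alleles with loxP sites around an exon, and the knockouts also carry cre under a muscle creatine kinase promoter, a promoter of heart and skeletal muscle fibres and not of endothelium. Tefm encodes the elongation factor of mitochondrial transcription. The series' design counts 4 controls, and the files used here hold 3 control libraries. Ages were not stated. Each library was treated as a separate mouse, and if some share a mouse the p-values describe technical spread.

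Endothelial cells join one another through VE-cadherin, the product of Cdh5, and PECAM-1, the product of Pecam1. They receive vascular endothelial growth factor (VEGF) through the receptor kinases encoded by Kdr (VEGF receptor 2) and Flt1 (VEGF receptor 1), and angiopoietins through the receptor kinase encoded by Tek (Tie2). In the heart, capillaries also pass fatty acids to cardiomyocytes, and Fabp4 encodes a fatty acid binding protein found in capillary endothelium and in fat cells. The microRNA miR-126 is made from the transcript of its host gene Egfl7, a gene of endothelial cells, and is used as an endothelial microRNA marker.

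The mature sequences that the RefSeq table holds for the miR-126 locus, without miR-126a-5p, are shown because the 2 precursors lie on opposite strands of the same stretch of chromosome 2 and their counts depend on how such overlaps are resolved. They are RefSeq sequences on GRCm38.p6, written 5′ to 3′, with the seed, bases 2 to 8, in capitals.
mmu-miR-126a-3p: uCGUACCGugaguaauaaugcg
mmu-miR-126b-5p: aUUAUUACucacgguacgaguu
mmu-miR-126b-3p: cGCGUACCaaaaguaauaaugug
The first is read from the plus strand (chr2:26591402-26591423) and the other two from the minus strand (chr2:26591399-26591420 and chr2:26591363-26591385). The first and the second share 19 genome bases on opposite strands, so a fragment of one is nearly the reverse complement of the other. The seed CGUACCG of miR-126a-3p belongs to 1 of the 1738 mature mouse microRNAs in that table.

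None of the Mir126 features had a count. Mir126a (ENSMUSG00000065540.1, chr2:26591357-26591429, plus strand), Mir126b (ENSMUSG00000105799.1, chr2:26591363-26591420, minus strand) and Mir1264 (ENSMUSG00000093122.1, chrX:147010601-147010686) were each listed at 0 in all 7 libraries, beside 22486 to 251172 microRNA counts per library. The comparison of knockouts with controls therefore has no value for miR-126. In GENCODE M21, all 73 nucleotides of Mir126a lie inside an annotated Egfl7 exon on the same strand, and all 58 nucleotides of Mir126b lie opposite exons of Egfl7 and Mir126a.

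Features placed as Mir126a is were seldom counted, and those placed as Mir126b is were counted more often. Of 282 microRNA features that lie wholly inside a same-strand exon of another feature, 13 had any count (4.61%), against 309 of 1613 with no exon of another feature over them (19.2%). With an opposite-strand exon alone, 39 of 164 had a count (23.8%). Of the 118 among these that lie wholly inside such an exon, as Mir126b does, 27 had a count (22.9%). Of features partly inside a same-strand exon, 22 of 143 had a count (15.4%). For 100 or more counts the shares were closer, 2.84% wholly inside a same-strand exon and 5.83% with no exon over them. Other microRNAs listed at 0 in all libraries and wholly inside a same-strand exon included Mir155, Mir223, Mir125b-1 and Mir17, Mir19a, Mir20a and Mir19b-1 of Mir17hg. The pattern was not without exception, since Mir27b (86701 counts) and Mirlet7i (13619 counts) are also wholly inside such exons of this annotation. How reads over 2 features were counted was not stated in the sources, and its part in these zeros was not tested. Whether the 0 of Mir126a reflects its level or the counting cannot be told apart here, so no limit is given for it. For Mir126b, 0 counts allow a share of up to 11.9 (knockout 2) to 133 (knockout 4) counts per 1000000 (ppm) of microRNA counts, by counting error alone, if its reads were countable. Egfl7 itself was counted 1, 6 and 1 times in controls 1 to 3, and 1, 0, 3 and 8 times in knockouts 1 to 4.

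**Figure D1:**
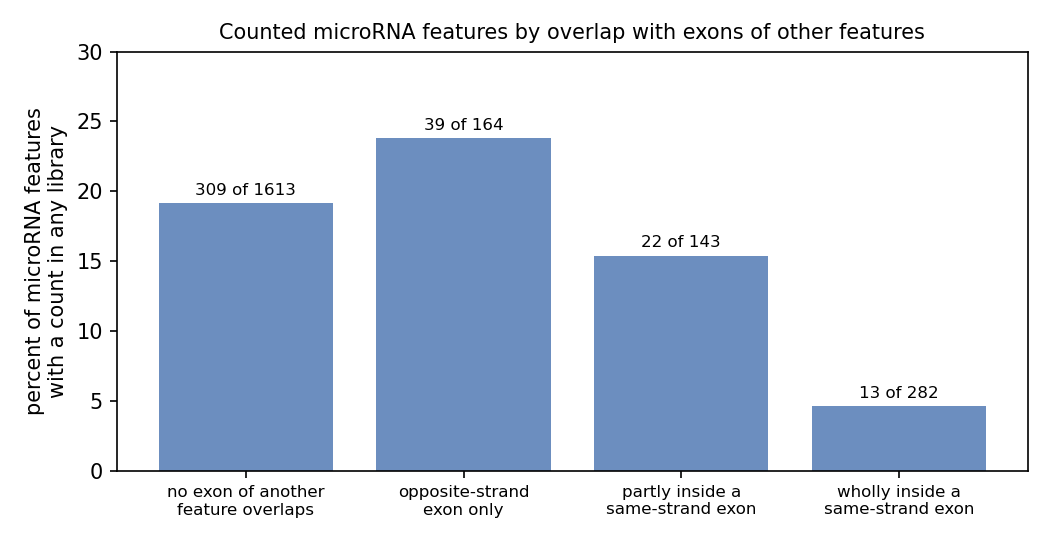
Percent of microRNA features with at least 1 count in any of the 7 libraries (vertical axis), by how exons of other GENCODE M21 features lie over them, with the numbers of features above the bars. Features wholly inside a same-strand exon, where Mir126a belongs, were counted in 4.61% of cases, the lowest of the 4 sets.

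The mRNA counts come from short fragments, since a small RNA kit was used, and they were few. Nuclear protein-coding counts ran from 51111 to 160267 in controls and from 29203 to 188642 in knockouts, so that 1 count was worth between 5.30 (knockout 4) and 34.2 (knockout 1) ppm of nuclear protein-coding counts (below, ppm). Total counts were 973835 to 2570739 per library, of which mitochondrially encoded RNA took 64.6% to 88.1%. The log2 ratio of small RNA (microRNA plus snoRNA) to nuclear protein-coding counts ran from -1.35 to 2.88 in controls and from -2.44 to 3.11 in knockouts. Tefm was counted 0, 2 and 1 times in controls and 0, 1, 0 and 2 times in knockouts, too few to check the labels. Nuclear protein-coding counts made up 2.28% (knockout 1) to 18.2% (knockout 4) of total counts, so levels here are shares within preparations of varying make-up. In these bulk preparations fewer endothelial cells and less RNA per endothelial cell cannot be told apart, from each other or from differences between the crude mitochondrial preparations.

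Summed over the 6 mRNAs, the endothelial level was 1839, 2814 and 2821 ppm in controls 1 to 3 and 890, 695, 1277 and 1771 ppm in knockouts 1 to 4. Every knockout lay below every control, knockout 4 by a small margin below control 1. The means were 2491 ± 565 ppm (SD, n = 3) and 1158 ± 475 ppm (SD, n = 4). The sums rest on 94, 451 and 223 counts in controls and on 26, 31, 92 and 334 in knockouts, and no test was made of them because the genes were chosen with earlier results known. On the scale of total counts the log2 ratio of the means was -0.00068 in place of -1.11, so the lower sum is a statement about endothelial fragments among protein-coding fragments.

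No single member passed the test over all features. The edgeR quasi-likelihood test, with libraries scaled to their nuclear protein-coding counts, called 0 of the 4 members that passed the low-count filter, while it called 9.86% of the 1602 features tested, 1.56% as lower and 8.3% as higher in knockouts. At an unadjusted p under 0.05 there were 2 of the 4 members, against 27.7% of all features. DESeq2 with the same scaling called 2 members as lower, Cdh5 and Kdr, with 3.62% of all features called lower and 11.6% higher. All 4 log2 fold changes of knockout over control were negative, with a median of -1.12, where the 1313 nuclear protein-coding genes tested had a median of 0.24 and 37.9% of them were negative. Under scaling to total counts the protein-coding median moved to 1.02, and Flt1 (0.01) and Pecam1 (0.34) were then positive.

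Cdh5 (ENSMUSG00000031871.9, chr8:104101625-104144511, plus strand, GRCm38) was the most abundant member. It was at 743, 1067 and 1126 ppm in controls and at 548, 359, 597 and 557 ppm in knockouts. All 4 knockouts lay below all 3 controls, and the knockouts were close together apart from the lower knockout 2. Its fold change on the log2 scale was -0.92 ± 0.31 (SE; edgeR adjusted p = 0.0990, unadjusted p = 0.0175). The pooled knockout counts, 180 against 298, gave a ratio of 0.524 to controls (95% counting interval 0.433 to 0.633). By a two-sided exact permutation test over the 35 splits, with the smaller tail doubled, p was 0.0571, the smallest that this form allows. Counted by the absolute difference of means, a form added after the values were seen, the exact permutation p was 0.0286. In the authors' deposited table Cdh5 has a log2 fold change of -1.16 with an adjusted p of 0.0184. The other 5 members are also negative in the authors' deposited table and do not pass there, with adjusted p-values of 0.143 for Kdr, 0.369 for Flt1, 0.487 for Fabp4, 0.543 for Pecam1 and 0.893 for Tek.

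Pecam1 (ENSMUSG00000020717.19, chr11:106654217-106750628, minus strand), the other junction gene, was at 157, 287 and 164 ppm in controls and at 68.5, 112, 167 and 180 ppm in knockouts. The groups overlapped, with knockouts 3 and 4 above controls 1 and 3. Its log2 fold change was -0.53 ± 0.35 (SE; edgeR adjusted p = 0.365), and the pooled ratio was 0.687 (95% counting interval 0.470 to 0.9996). Control 2 carried much of the difference, since without it the fold change was -0.16 (edgeR adjusted p = 0.988).

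**Figure D2:**
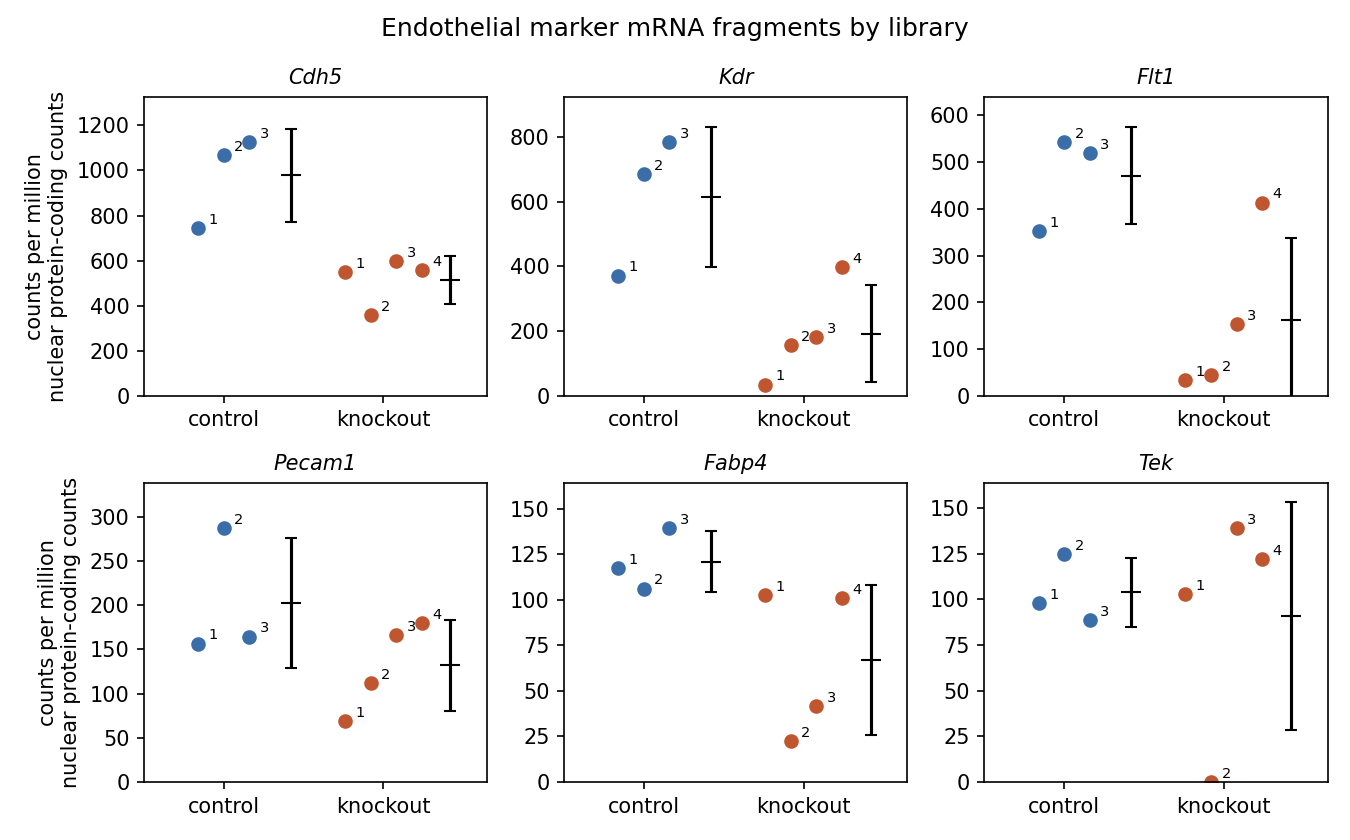
Level in ppm of nuclear protein-coding counts (vertical axes, each from 0) of the 6 mRNAs in every library, numbered by replicate, with the mean and SD of each group to its right (the SD bar of Flt1 in knockouts is cut at 0). Cdh5 and, by a small margin, Fabp4 do not overlap between groups, and knockout 4 is the highest knockout for Kdr, Flt1 and Pecam1.

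The VEGF receptor genes varied more among knockouts than Cdh5 did. Kdr (ENSMUSG00000062960.10, chr5:75932827-75978458, minus strand), the main signalling receptor for VEGF, was at 372, 686 and 784 ppm in controls and at 34.2, 157, 180 and 398 ppm in knockouts. Flt1 (ENSMUSG00000029648.13, chr5:147561604-147726011, minus strand), whose product binds VEGF tightly and signals weakly, was at 352, 543 and 519 ppm in controls and at 34.2, 44.8, 153 and 413 ppm in knockouts. For both genes 3 of 4 knockouts lay below every control, and knockout 4 alone lay above control 1.

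Kdr had a log2 change of -1.53 ± 0.56 (SE; edgeR adjusted p = 0.125, unadjusted p = 0.0266) and a pooled ratio of 0.436 (95% counting interval 0.338 to 0.561). Flt1 had -1.32 ± 0.65 (SE; edgeR adjusted p = 0.235) and a pooled ratio of 0.547 (95% counting interval 0.417 to 0.715). Knockout 4 held 75 of the 96 pooled knockout counts of Kdr and 78 of the 92 of Flt1. The pooled ratios and intervals therefore describe mostly that library and not the spread among knockouts. The ratios of the mean levels were 0.313 for Kdr and 0.342 for Flt1. The exact permutation test, two-sided with the smaller tail doubled, gave p = 0.114 for each. Both genes passed when knockout 4 was left out, Kdr at -2.19 (edgeR adjusted p = 0.0362) and Flt1 at -2.40 (adjusted p = 0.0273), and Cdh5 did not (-0.97, adjusted p = 0.126). That fit called 1.68% of features as lower. Knockout 1 had a single count for each receptor, so its values are imprecise.

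The bases before the start sites of the receptor genes are shown because these neighbours in function were high and low in the same libraries, and ETS factors are known regulators of endothelial genes. The RefSeq table on GRCm38.p6 held Flt1, Kdr and Tek of the 6 members. Both sequences run 5′ to 3′ on the minus strand over the 250 bases before the start, with AGGAAG, 1 form of the ETS motif, in capitals.
Flt1 (chr5:147726012-147726261): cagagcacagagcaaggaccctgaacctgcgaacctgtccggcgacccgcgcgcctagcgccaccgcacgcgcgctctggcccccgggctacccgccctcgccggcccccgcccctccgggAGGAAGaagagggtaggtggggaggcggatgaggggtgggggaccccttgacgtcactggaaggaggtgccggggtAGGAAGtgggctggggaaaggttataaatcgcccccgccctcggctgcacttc
Kdr (chr5:75978456-75978705): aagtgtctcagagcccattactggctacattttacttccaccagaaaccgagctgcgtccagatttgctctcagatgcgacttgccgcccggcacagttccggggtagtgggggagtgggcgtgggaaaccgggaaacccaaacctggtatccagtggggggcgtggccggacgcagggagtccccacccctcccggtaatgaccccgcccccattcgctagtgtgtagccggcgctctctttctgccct
AGGAAG and CGGAAG were searched on both strands, and matches that overlap were each counted. The Flt1 window held 2 matches, both AGGAAG, and the Kdr and Tek windows held 0. Of 32851 windows of the same length, 39.2% held at least 1 match of either motif and 11.3% held 2 or more, so the matches in Flt1 are not rare.

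Tek (ENSMUSG00000006386.15, chr4:94739289-94874976, plus strand) failed the low-count filter. It was at 97.8, 125 and 88.6 ppm in controls and at 103, 0, 139 and 122 ppm in knockouts. Apart from knockout 2, which had 0 counts and where 0 counts allow up to 67.2 ppm, the knockouts lay within or above the control range. The pooled counts, 32 in controls and 36 in knockouts, gave a ratio of 0.977 (95% counting interval 0.590 to 1.62; exact permutation p = 1). Knockout 4 held 23 of the 36 knockout counts, so the ratio and its interval describe mostly that library. The interval holds both no difference and the pooled ratio of Pecam1 (0.687). It overlaps the counting intervals of Cdh5 (0.433 to 0.633) and Flt1 (0.417 to 0.715), and not that of Kdr (0.338 to 0.561). Whether the change of Tek differs from theirs was not tested.

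Fabp4 (ENSMUSG00000062515.3, chr3:10204088-10208576, minus strand) also failed the filter. It was at 117, 106 and 139 ppm in controls and at 103, 22.4, 41.6 and 101 ppm in knockouts. The groups did not overlap, but the highest knockout (103 ppm, from 3 counts) and the lowest control (106 ppm) were less than the value of 1 count apart. The pooled counts, 34 and 26, gave a ratio of 0.664 (95% counting interval 0.383 to 1.1; exact permutation p = 0.0571, and 0.114 by the absolute difference). Cdh5 and Fabp4 are thus 2 of 6 members whose groups do not overlap, beside 3.28% of all nuclear protein-coding genes with a count and 6.6% of those with 50 or more counts that lay wholly lower in knockouts.

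Fabp4 is shared with fat cells, whose markers had few counts. Of 7 adipocyte genes, Lep and Retn were at 0 in every library, Adipoq had 0, 1 and 0 counts in controls and 0, 0, 0 and 1 in knockouts, and none passed the filter. Lipe, a lipase that fat cells share with other tissues, had 4, 6 and 4 counts in controls and 3, 0, 0 and 5 in knockouts, and Cfd had 3, 3 and 2 and then 1, 0, 3 and 3. The 7 genes summed to 62.4 to 176 ppm in controls (mean 105) and 22.4 to 137 ppm in knockouts (mean 66.2), beside means of 121 and 66.9 ppm for Fabp4, and their part in the Fabp4 values was not tested.

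Per kilobase of exon, the members held a similar order in both groups only at the top. In controls Cdh5 stood at 233 ± 49 ppm per kb (SD, n = 3), above Kdr at 68.0 ± 23.9, and the other 4 lay between 22.0 (Tek) and 34.9 (Flt1). Kdr lay above Flt1, and Fabp4 (26.9 ± 3.75) above Tek (22.0 ± 3.995), by more than either SD, while Flt1, Pecam1 and Fabp4 lay within the larger SD of their neighbours. The exon length used for Fabp4, 4489 bases, is its whole gene span (chr3:10204088-10208576) with no intron left out. A shorter spliced mRNA would raise its value per kb, so the place of Fabp4 in either group is not established. In knockouts Cdh5 stood at 123 ± 25.3 ppm per kb (SD, n = 4), and Kdr at 21.3, Pecam1 at 21.2, Tek at 19.3, Fabp4 at 14.9 and Flt1 at 11.9 could not be ordered beyond their SDs.

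Within the summed counts the shares of Cdh5 and Flt1 were close together among controls. Cdh5 took 37.9% to 40.4% of the 6-gene sum in controls and 31.4% to 61.5% in knockouts. Flt1 took 18.4% to 19.3% in controls and 3.85% to 23.4% in knockouts, and Kdr took 20.2% to 27.8% and 3.85% to 22.6%. The less abundant members varied more among controls, Pecam1 from 5.83% to 10.2%, Tek from 3.14% to 5.32% and Fabp4 from 3.77% to 6.38%. The knockout ranges of Cdh5, Flt1 and Kdr are wider and rest on fewer counts, with 26 in all in knockout 1.

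The summed level also moved with the make-up of the libraries. Among knockouts it was highest in knockout 4, which had the lowest log2 ratio of microRNA and snoRNA to protein-coding counts (-2.44), and lowest in knockout 2, which had the highest (3.11). Among controls it was lowest in control 1, whose ratio was highest (2.88). Fitted with that ratio as a covariate, the slopes were -0.36 for Flt1, -0.28 for Kdr, -0.18 for Pecam1 and -0.09 for Cdh5, in log2 units of level per log2 unit of ratio, where the median protein-coding gene had 0.02. Slopes lower than that of Flt1 were found for 0.533% of the protein-coding genes tested, and slopes lower than that of Cdh5 for 20% of them.

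**Figure D3:**
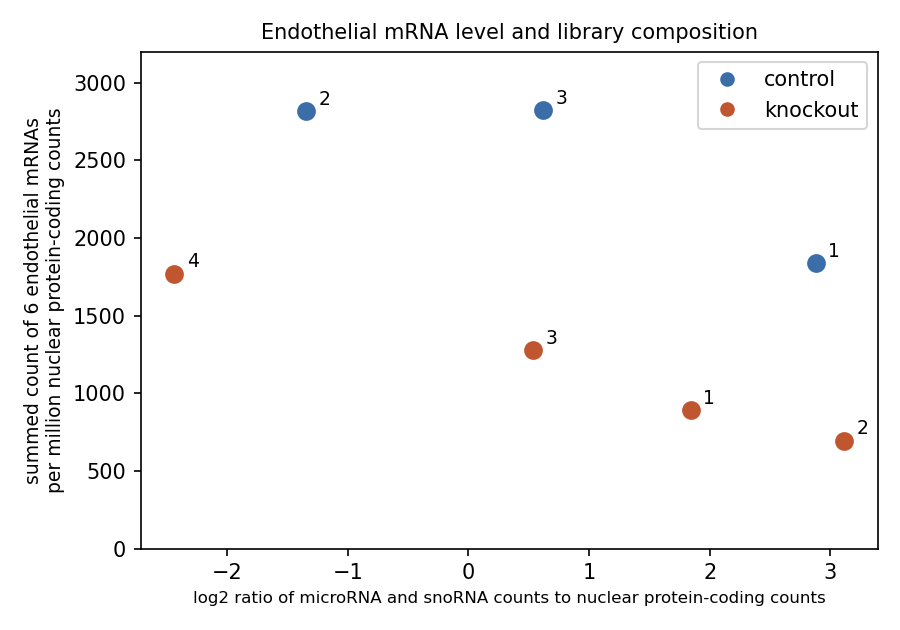
Summed level of the 6 mRNAs, in ppm of nuclear protein-coding counts (vertical axis), against the log2 ratio of small RNA to nuclear protein-coding counts (horizontal axis), 1 point per library with its replicate number. Knockout 3 (1277 ppm, ratio 0.54) lies below control 3 (2821 ppm, 0.61), and knockout 2 (695 ppm, 3.11) below control 1 (1839 ppm, 2.88). Knockout 1 (1.84) lies between the ratios of controls 3 and 1, and knockout 4 (-2.44) lies below the ratios of all controls. The part of library make-up in the sum was not tested.

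With the ratio as a covariate, 3 of the 4 members tested passed. The edgeR log2 fold changes in that fit were -1.62 ± 0.33 for Kdr (SE; adjusted p = 0.00382), -1.51 ± 0.35 for Flt1 (adjusted p = 0.00719), -0.94 ± 0.23 for Cdh5 (adjusted p = 0.0113) and -0.61 ± 0.29 for Pecam1 (adjusted p = 0.129). The sizes were close to those without the covariate and the errors were smaller. That fit called 7.55% of the 1602 features as lower and 20.2% as higher, including all 158 called without it, so it gives more calls for genes at large and not for the members alone.

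**Figure D4:**
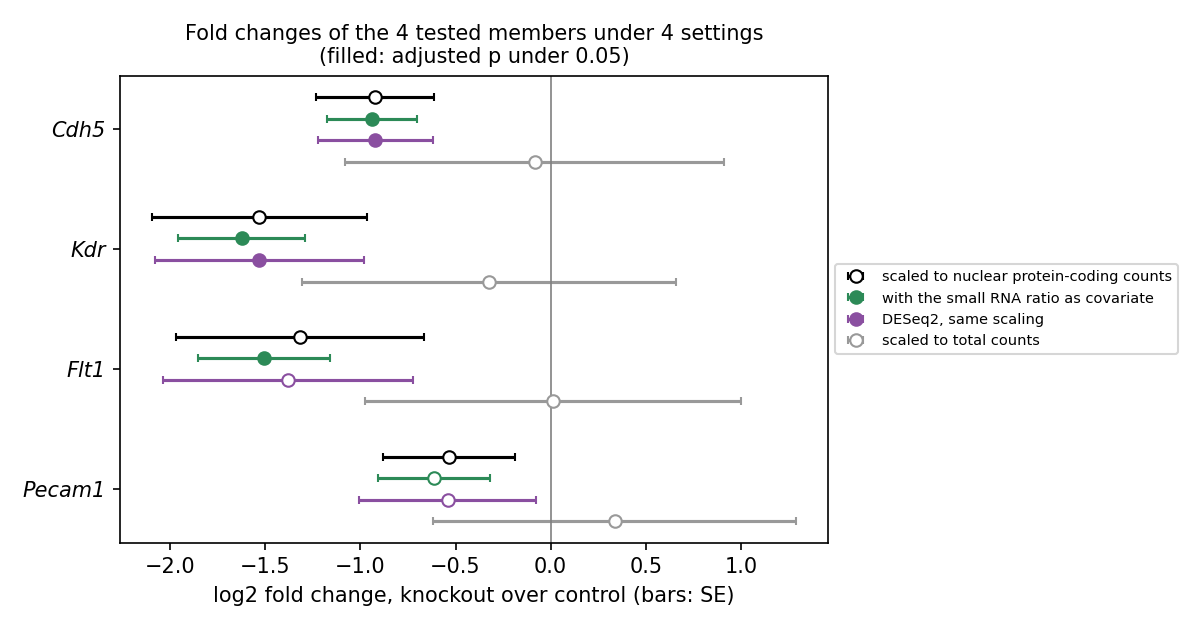
Log2 fold change of knockout over control (horizontal axis, bars are standard errors) of the 4 members that passed the low-count filter, under the scaling to nuclear protein-coding counts and 3 other settings, filled where the adjusted p was under 0.05. The estimates for 3 settings lie close together for each gene, from -0.53 for Pecam1 to -1.62 for Kdr, and scaling to total counts moves all of them towards or past 0 with wider bars.

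Other endothelial genes were mostly on the same side of 0, and none passed in the edgeR fit without the composition covariate. Of 21 further surface and junction genes 7 could be tested, 0 were called and 6 had negative fold changes, with a median of -0.74. Nrp1, a co-receptor for VEGF, went from 438 ± 61.6 ppm (SD, n = 3) to 257 ± 58.5 ppm (SD, n = 4) without overlap (log2 fold change -0.74 ± 0.25, SE; edgeR adjusted p = 0.103). Tie1, the partner receptor of Tek, had -0.88, Podxl, a sialomucin of the vessel surface, had -0.99, and Cd34, a sialomucin of capillaries, had -0.69. Vwf, the von Willebrand factor of larger vessels, had the positive value among these 7, at 450, 580 and 481 ppm in controls and 856, 291, 805 and 716 ppm in knockouts. With the composition covariate 4 of these 7 passed as lower, where 7.55% of all features passed as lower and 20.2% as higher. Among the 14 genes of the list with too few counts to test, 10 had a lower and 4 (Ednrb, Plvap, Flt4 and Cldn5) a higher mean in knockouts. Ednrb, an endothelin receptor, lay wholly higher in knockouts, at 58.7, 31.2 and 50.6 ppm in controls and 171, 134, 97.2 and 138 ppm in knockouts, and Nrp2 and Esam lay wholly lower, where 6.42% of protein-coding genes with a count lay wholly higher and 3.28% wholly lower.

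Of 12 secreted and signalling genes 2 could be tested, Aqp1, a water channel of capillaries (-0.85), and Notch1 (-0.84), and of 11 transcription factors 1, Epas1 (-0.24). None of them passed in the edgeR fit without the composition covariate. With it Aqp1 (-0.94, edgeR adjusted p = 0.0141) and Notch1 (-1.01, adjusted p = 0.026) passed as lower, where 7.55% of all features did. Epas1 (-0.24, adjusted p = 0.519) did not. The ligands of the receptors were sparse, and 1 of 7 could be tested. Vegfa, the main ligand of Kdr and Flt1, went from 358 ± 20.2 ppm (SD, n = 3) to 270 ± 71.0 ppm (SD, n = 4), with -0.36 ± 0.25 as log2 fold change (SE; edgeR adjusted p = 0.406). Angpt1, the activating ligand of Tek, had 0, 24 and 6 counts in controls and 1, 1, 1 and 5 in knockouts, most of them in control 2.

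In the list for capillary fatty acid handling, where Fabp4 would belong by function, 2 of 6 genes could be tested and 0 were called. Lpl, lipoprotein lipase, which acts on the capillary wall and is made largely by the muscle cells beside it, was at 6320, 12067 and 14371 ppm in controls and at 4212, 1972, 2568 and 3483 ppm in knockouts. The groups did not overlap (log2 fold change -1.84 ± 0.56, SE; edgeR adjusted p = 0.0760, and 0.00824 by DESeq2). Cd36, a fatty acid transporter of endothelium and muscle, had -0.68. Gpihbp1, the capillary anchor of lipoprotein lipase, had 0, 4 and 1 counts in controls and 0, 1, 2 and 8 in knockouts, too few to read.

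**Figure D5:**
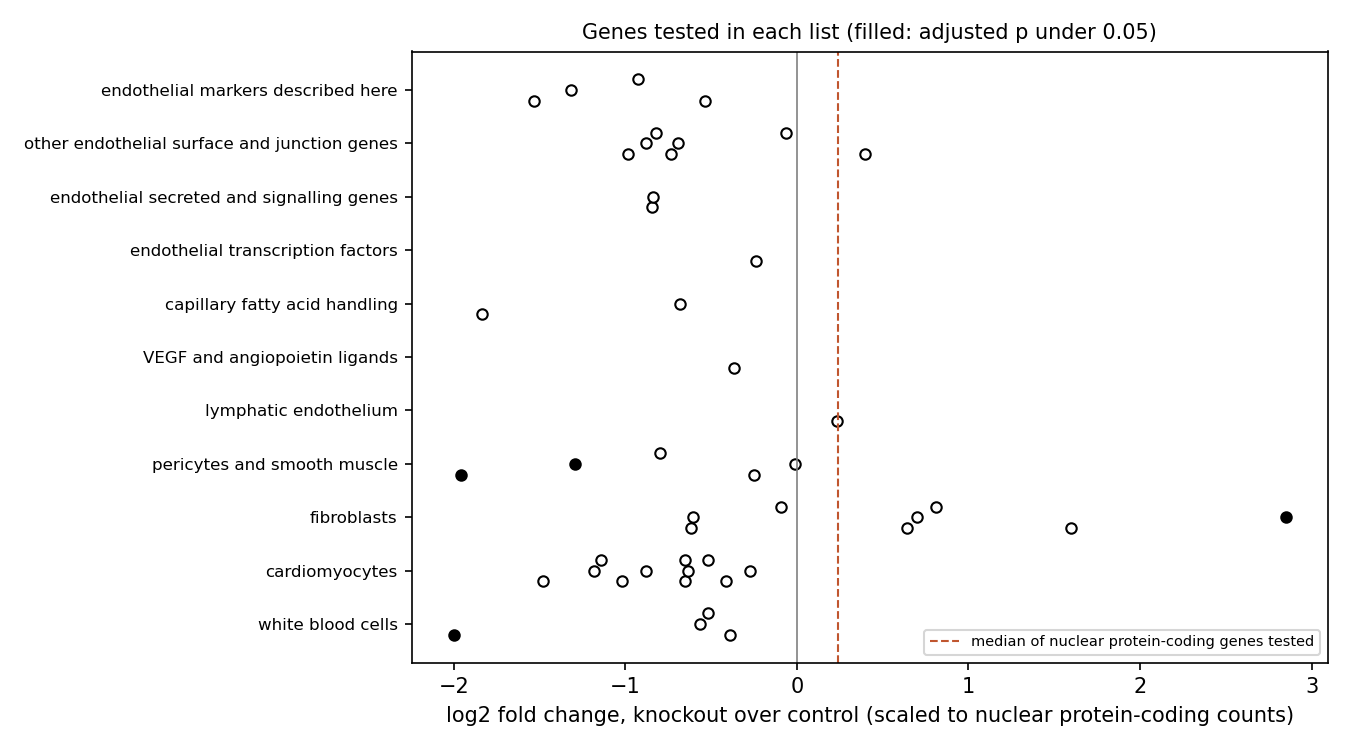
Log2 fold change of knockout over control (horizontal axis) of every tested gene of each list (rows), filled where the edgeR adjusted p was under 0.05, with the median of nuclear protein-coding genes (0.24) as a dashed line. Most endothelial genes lie left of 0, as do all 11 cardiomyocyte genes, and the filled points are Abcc9, Acta2, Cd74 and Postn.

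Markers of other cell types moved in the same comparison, and their part in the endothelial values was not tested. All 11 cardiomyocyte genes tested had negative fold changes and 0 passed (median -0.65), with a summed level of 92640 to 141613 ppm in controls and 54286 to 77424 ppm in knockouts. Of the 11, 7 lay wholly lower in knockouts, where 6.6% of protein-coding genes with 50 or more counts did. With the composition covariate 5 of the 11 passed as lower, where 7.55% of all features did. By DESeq2, where 3.62% of all features passed as lower, Ryr2 (adjusted p = 0.00639), Ckm (0.00517) and Tnni3 (0.00979) passed and Actc1 (0.0925) did not. Of 9 genes listed for pericytes and smooth muscle 5 could be tested and 2 were called lower. These were Abcc9, a potassium channel subunit (-1.96, edgeR adjusted p = 0.0350), and Acta2, smooth muscle actin (-1.29, adjusted p = 0.0379). Only these 2 of the 5 did not overlap between groups. With the composition covariate 3 of the 5, Abcc9, Acta2 and Rgs5, passed as lower. The list summed to 1898 to 3669 ppm in controls and 874 to 2195 ppm in knockouts. Abcc9 alone held 1191 of the mean sum of 2806 ppm in controls and 297 of 1395 ppm in knockouts, so much of the lower sum lies in Abcc9. In mean ppm of controls and of knockouts, Rgs5 was at 627 and 351, Pdgfrb at 402 and 323, and Cspg4 at 207 and 195. Myh11 was at 115 and 101, Kcnj8 at 38.0 and 26.9, Tagln at 25.4 and 26.6, and Cnn1 at 6.30 and 1.33. Which cells the Abcc9 fragments came from was not tested. Of 9 white blood cell genes 4 could be tested and Cd74 fell (-1.999, adjusted p = 0.0191), with sums of 783 to 1316 ppm and 444 to 822 ppm. Of 9 fibroblast genes 8 could be tested, 5 positive and 3 negative, with sums of 5107 to 8324 ppm and 5684 to 12298 ppm. Postn, a matrix protein of activated fibroblasts, rose (2.85, edgeR adjusted p = 0.0161). Fn1 (1.60, edgeR adjusted p = 0.0624, and 0.00337 by DESeq2) and Postn lay wholly higher in knockouts, and Dcn (-0.61, edgeR adjusted p = 0.397) wholly lower. Of protein-coding genes with a count, 6.42% lay wholly higher. By DESeq2 11.6% of all features passed as higher. Of lymphatic genes only Prox1 could be tested (0.24, adjusted p = 0.480; -0.04 with TMM scaling over all genes), Ccl21a was at 0 in every library, and the sums were 215 to 278 ppm and 224 to 333 ppm. Prox1 alone held 185 of the mean sum of 246 ppm in controls and 213 of 271 ppm in knockouts, so these sums say little about the rest of the list. No erythroid gene could be tested, and their sums were 187 to 354 ppm and 111 to 411 ppm. The calls of Abcc9, Acta2, Cd74 and Postn all ended without control 2 or control 3, those of Abcc9 and Acta2 also without knockout 2 or knockout 3, that of Abcc9 without knockout 1, and that of Acta2 without control 1 or knockout 4.

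Over the 7 libraries, the protein-coding genes whose levels most resembled the summed members were Tie1, Nudt4, Rgs5, Sparcl1 and Igfbp5, of 1309 compared. Likeness was the mean absolute difference of centred log2(ppm + 10) values, which was 0.17, 0.17, 0.17, 0.19 and 0.20. Tie1 was at 137, 237 and 202 ppm in controls and at 68.5, 44.8, 69.4 and 175 ppm in knockouts, again with knockout 4 above control 1. Rgs5, a pericyte gene, was at 411, 749 and 721 ppm and at 274, 224, 333 and 573 ppm. These genes share the libraries and their composition with the members, and the likeness is a description.

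In place of miR-126, other microRNAs reported in endothelium were counted and did not pass. Of 23 names 12 could be tested when libraries were scaled to microRNA counts, 0 were called, 9 were positive and the median was 0.65, where 131 microRNAs had a median of 0.38. That fit called 0 of 1842 features (0%), with 22 (1.19%) at an unadjusted p under 0.05 and 3 calls by DESeq2. Mir221 made up 1686, 1835 and 2211 ppm of microRNA counts in controls and 8022, 6900, 6937 and 5025 in knockouts. Mir222, its neighbour on chromosome X, made up 378, 464 and 496 in controls and 2473, 2628, 2012 and 1023 in knockouts. Neither overlapped between groups, and their log2 changes were 1.81 ± 0.71 and 2.19 ± 0.93 (SE; edgeR adjusted p = 0.970 each), where 3.09% of all features lay wholly higher in knockouts. Fitted among microRNAs alone, where 45 of 131 (34.4%) were called in either direction, 7 of the 12 passed as higher. In that fit the edgeR adjusted p was 0.00132 for Mir221 and 0.00157 for Mir222, and Mir24-2 (1.39, adjusted p = 0.00208) and Mir125b-2 (1.40, adjusted p = 0.00759) passed too. These microRNAs are also made outside endothelium.

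Lists of microRNAs of other cells had 0 calls in the fit of all features. Of muscle microRNAs 3 of 7 names could be tested, Mir208b (3.05), Mir499 (-0.70) and Mir208a (0.12), of smooth muscle microRNAs 2 of 4, Mir143 (-0.55) and Mir145a (-0.35), and of blood cell microRNAs 5 of 8, among them Mir150 (-0.96), Mir142 (0.65), Mir144 (-0.45) and Mir486 (-0.40). Fitted among microRNAs alone, Mir208b passed as higher (edgeR adjusted p = 0.00367), and Mir143 (adjusted p = 0.00672), Mir150 (adjusted p = 0.00751) and Mir499 (adjusted p = 0.0478) passed as lower, so calls in that fit were not limited to the endothelial list.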

How the data were processed

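Small RNA libraries of crude heart mitochondria (miRNeasy extraction, Illumina small RNA kit, single-end MiSeq reads, per the labels' protocols) were compared between 3 controls and 4 knockouts, grouped and numbered by the labels. Raw counts per feature were made and deposited by the authors. The submitters' processing notes name featureCounts, Bowtie2 and bedtools, cutadapt 1.10, DESeq2 1.14.1 under R 3.3.2, SAMtools 1.3.1 and the build mm10, without their roles. The annotation release, strand setting and treatment of ambiguous reads were not stated there or in the labels. A deposited table of the authors' own comparison holds log2 fold changes with their errors, a Wald score and p-values, per the file headers, and was used for the members alone. Of 49548 Ensembl identifiers 49289 matched GENCODE M21 (GRCm38), from which coordinates and exon lengths were taken.

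All features entered 1 fit per scaling in edgeR 4.0.16, run under R 4.3.3 (counts, quasi-likelihood, two-sided, filterByExpr with minimum count 10, Benjamini-Hochberg over all features tested, threshold 0.05), with library size set to nuclear protein-coding counts for mRNAs and to microRNA counts for microRNAs. The standard error is the fold change divided by the square root of F. Shares of single genes were compared with exact permutation tests over 35 splits (scipy 1.17.1), 6 in all and not adjusted. Counting intervals are exact 95% intervals of a ratio of pooled counts and cover counting error alone, since no molecular identifiers are described. Alternatives were other scalings, filters and feature sets, DESeq2 1.42.0, a replicate block, a composition covariate, other summaries of shares and each library left out, and scaling without Lars2, which takes 3.25% to 16.6% of protein-coding counts, was added after the data were seen.

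All members were named, up to 4 genes of each other list with the smallest adjusted p and all that passed, and the 5 genes most like the summed members. Vwf, Ednrb, Plvap, Flt4, Cldn5, Nrp2, Esam, Angpt1, Gpihbp1, Lipe, Cfd, Egfl7, Adipoq, Lep, Retn, Ccl21a, Mir155, Mir223, Mir27b, Mirlet7i and the microRNAs of Mir17hg were named after their values were seen. Cspg4, Myh11, Kcnj8, Tagln and Cnn1 were also named after their values were seen. The members, lists and alternatives were chosen with earlier results of these data known. In a test on simulated data for this comparison (1602 features), 5.56% of genes changed by 1 log2 unit and 36.4% of those changed by 2 were recovered, with 1 false call among 1402 unchanged genes.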

Additional observations from a re-analysis of the deposited data

Results flagged for a closer look

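Each of 47 values was examined among the 4 knockouts for a library far from the others, and 2 were, about what chance gives at 1 in 20. Neither is a member. Acta2 was at 34.2 ppm in knockout 1, from 1 count, and at 83.3 to 89.7 ppm in the other knockouts. Mir208b made up 7641 ppm of microRNA counts in knockout 1 and 1971 to 2489 in the others.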

How the results depend on the processing

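The 4 members tested had negative fold changes under the 18 settings other than total counts, from -1.24 to -0.79 for Cdh5, -2.33 to -1.28 for Kdr, -2.59 to -1.05 for Flt1 and -0.84 to -0.16 for Pecam1. The number of members called was 0 under 14 of 19 settings, 1 without a low-count filter (Kdr), 2 among protein-coding genes alone, 2 by DESeq2, 3 with the composition covariate, and 0 to 2 with 1 library left out. The cause of these differences was not tested. For features at large, 25 were called lower and 133 higher. These counts were 42 and 77 with TMM, 51 and 80 with DESeq2 size factors, 44 and 83 with TMM within protein-coding genes, 1 and 13 with total counts, 54 and 211 without a filter, 63 and 222 among protein-coding genes alone, and 121 and 323 with the covariate. The lower count was 44 without the 10 most abundant genes in the scaling and 58 by DESeq2, with 186 higher. With 1 library left out the counts were 1 to 24 lower and 12 to 136 higher, lowest without control 2 in both directions, and they were also 3 and 36 without control 3, 7 and 42 without knockout 3, and 12 and 79 without knockout 2, with 16 lower without control 1. Scaled to microRNA counts, the 0 calls became 82 with TMM, 107 with DESeq2 size factors, 5 with total counts, 4 without a filter, 45 among microRNAs alone, 3 by DESeq2, 467 with the covariate and 0 to 5 with 1 library left out (5 without control 1). For Mir126a, Mir126b and Mir1264 no setting could give a value.

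Scaled to total counts, log2 fold changes became positive for Flt1 (0.010), Pecam1 (0.34), Nrp1 (0.15), Tie1 (0.12), Podxl (0.19), Cd34 (0.31), Aqp1 (0.24), Notch1 (0.19), Epas1 (0.74), Cd36 (0.15), Vegfa (0.56), Rgs5 (0.27), Pdgfrb (0.91), Lum (0.38), Dcn (0.25), Lyz2 (0.23), Csf1r (0.015), C1qb (0.35), Mir144 (0.24) and Mir486 (0.046). As shares of total counts, Flt1 (0.023), Pecam1 (0.36), Fabp4 (0.21) and Tek (0.85) had positive log2 ratios, and the sum of the 6 members had -0.00068 in place of -1.11, and -1.38 to -0.92 with 1 library left out. With 1 library left out, the log2 ratio of Tek ran from -0.47 to 0.22 (without knockout 2), the fold change of Pdgfrb from -0.65 to 0.013 (without control 3) and that of Mir208a from -0.055 (without control 1) to 0.30. Prox1 turned negative with TMM (-0.042), DESeq2 size factors (-0.059) and TMM within protein-coding genes (-0.010). Mir208a turned negative with TMM within microRNAs (-0.17) and without the 10 most abundant microRNAs in the scaling (-0.20).

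With the replicate number as a block, Cdh5 had -0.98 (edgeR adjusted p = 0.215), Kdr -2.33 and Flt1 -2.59 (adjusted p = 0.0758 each), 0 members were called, and of all features 0 were called lower and 15 higher. Knockout 4 has no control of its number, so it added nothing to the fold changes of that fit. The labels do not say whether the replicate numbers pair the libraries. Same-numbered libraries correlated at 0.249, -0.244 and 0.186 in their deviations from the group means, and not every library correlated best with its own number. These values cannot decide on pairing, since libraries of like make-up also correlated. Control 2 and knockout 4, lowest in small RNA ratio, had 0.405, and control 1 and knockout 2, the highest, had 0.288. Depth limits all of this, since the members had 26 to 451 counts per library in sum.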
